A study of Mus musculus with 161 samples.

Results

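The comparison was between mouse embryonic stem (ES) cells that lived on CTCF without its N terminus and cells that lived on a small amount of full-length CTCF. Its members were 12 of the 91 chromosome conformation capture carbon copy (5C) libraries of the series. They were chosen by genotype and treatment: 10 libraries of CTCF Del_1-265, written ΔN(1–265) here, from clone 1 (line EN186.4, 6 libraries) and clone 2 (line EN186.6, 4 libraries), and 2 libraries of the line labelled Full-length_low_expression (EN133.6). In all 3 lines, which descend from male E14Tg2a cells, the endogenous CTCF carried an auxin-inducible degron (AID), the cells made the auxin receptor Tir1, and a CTCF cDNA under a doxycycline-responsive TetO promoter with the rtTA3G activator had been added. Each culture had received auxin (500 µM), which degraded the endogenous protein, and doxycycline (dox, 1 µg/ml), which induced the transgene, for 4 days. 2 reference groups were used for scale only, both from line EN133.10, which carries the full-length transgene at the higher level: 14 libraries given auxin and dox for 4 days (full-length high) and 2 given auxin alone for 4 days (no dox, so that the transgene was not induced).

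Each line is 1 clone, so the comparison is of 2 clones against 1. The labels say that the replicates are separate libraries and do not say that they came from separate cultures, so that every p-value measures the spread between libraries and not between lines. Transgene amounts were not among the values analysed here, and 5C covers 1 part of the X chromosome and so cannot check the transgene. The N-terminal deletion, the amount of CTCF and the clone cannot be told apart from these libraries alone. 5C also averages over a population: a contact that is weaker in every cell and one that is missing from some of the cells cannot be told apart.

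CTCF binds DNA through a central array of zinc fingers, flanked by an N-terminal and a C-terminal part. Cohesin extrudes chromatin loops and is held at CTCF sites, mostly where it meets the N-terminal side of the protein, and for this reason contacts are found mainly between CTCF sites whose motifs point toward each other (convergent motifs). Where extrusion is stopped, contacts across the site become rare and a boundary between topologically associating domains (TADs) results. The region measured, 4600 kb around the X-inactivation centre (mm9 chrX:98831149-103431148), holds Xist, the noncoding RNA that silences an X chromosome, its antisense repressor Tsix, and Rlim, which encodes an activator of Xist.

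The 6 TAD boundaries were 20-kb bins, numbered along the chromosome. Boundary 1 (chrX:99151149-99171148) lies in Nhsl2 and holds 1 FLAG-CTCF peak of the full-length protein. Boundary 2 (chrX:99411149-99431148) lies between Rps4x, a ribosomal protein gene, and Cited1, a transcriptional co-regulator gene, with 3 peaks. Boundary 3 (chrX:100451149-100471148) lies in 4930519F16Rik, before the homeobox gene Cdx4, with 1 peak. Boundary 4 (chrX:100671149-100691148) overlaps Tsix, Xist and Enox, another noncoding RNA gene of the X-inactivation centre, with 3 peaks. Boundary 5 (chrX:101211149-101231148) lies between Rlim and C77370 and holds 0 peaks, also when the bin on either side is added. Boundary 6 (chrX:103211149-103231148) overlaps Cox7b, a cytochrome c oxidase subunit gene, and Atp7a, a copper transporter gene, with 3 peaks. The most frequent word of 12 bases in the 1128 peaks of the X chromosome was reduced to the letters that at least 85% of similar words shared, which gave CCANNAGNNGGC, letters of the core of the CTCF motif. A search for it on both strands of the 78 peaks of the region, each 200 bp long, gave a match in 31 peaks (39.7%), 18 on the plus strand, 13 on the minus strand and 0 on both. The same letters were found in 1.39% of the 23000 windows of 200 bp that tile the region. Every match within a boundary bin was on the plus strand.

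The peaks below lie in the 3 bins at which the contact changes described further on meet: boundary 3, boundary 4 and the bin in Tsix between them. Of the 7 peaks in these bins the 5 with a motif match are shown, and chrX:100636248-100636447 in the Tsix bin and chrX:100672930-100673129 at boundary 4 held none. They are from the mm9 assembly (NCBIM37), written 5′ to 3′ on the plus strand, with the motif in capitals. A match on the minus strand reads GCCNNCTNNTGG.
Boundary 3, chrX:100455304-100455503, intron of 4930519F16Rik, motif on the plus strand: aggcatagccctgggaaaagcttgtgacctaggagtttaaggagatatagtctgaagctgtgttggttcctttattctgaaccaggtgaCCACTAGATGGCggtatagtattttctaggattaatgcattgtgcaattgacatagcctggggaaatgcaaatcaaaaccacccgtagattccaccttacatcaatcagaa
Tsix bin, chrX:100639186-100639385, intron of Tsix, motif on the minus strand: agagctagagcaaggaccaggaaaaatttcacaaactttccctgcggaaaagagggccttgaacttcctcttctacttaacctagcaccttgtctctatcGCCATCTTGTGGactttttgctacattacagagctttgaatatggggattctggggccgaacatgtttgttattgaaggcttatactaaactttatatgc
Tsix bin, chrX:100649485-100649684, intron of Tsix, motif on the minus strand: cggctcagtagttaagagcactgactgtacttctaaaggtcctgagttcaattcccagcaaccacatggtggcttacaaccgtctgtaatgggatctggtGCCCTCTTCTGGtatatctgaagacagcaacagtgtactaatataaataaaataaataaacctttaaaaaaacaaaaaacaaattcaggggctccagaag
Boundary 4, chrX:100676984-100677183, exon of Tsix and of Xist, motif on the plus strand: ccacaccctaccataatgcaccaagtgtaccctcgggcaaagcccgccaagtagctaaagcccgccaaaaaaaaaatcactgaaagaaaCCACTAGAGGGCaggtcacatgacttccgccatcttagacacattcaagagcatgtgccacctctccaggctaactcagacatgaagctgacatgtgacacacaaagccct
Boundary 4, chrX:100679482-100679681, exon of Tsix, motif on the plus strand: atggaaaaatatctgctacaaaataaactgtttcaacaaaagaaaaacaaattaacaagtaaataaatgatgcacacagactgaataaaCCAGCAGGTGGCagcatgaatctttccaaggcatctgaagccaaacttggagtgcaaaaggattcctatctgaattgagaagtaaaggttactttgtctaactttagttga
By these letters boundary 3 and the Tsix bin point toward each other, while the Tsix bin and boundary 4 point away from each other.

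Depth was uneven. The low-expression libraries held 3631870 and 10076872 counts and the ΔN(1–265) libraries 4509541 to 23419010. The share of nonzero primer pairs did not follow these totals. It was 65.8% and 73.5% in the low-expression libraries and 41.2% to 72.0% in the ΔN(1–265) libraries. Clone 1 replicate 6, with 14646809 counts, was at 48.0%. In 66 pairs of the 12 libraries, 0.95% to 5.24% of the primer pairs with a count had equal counts, so no library was a copy of another. Both low-expression libraries, and clone 1 replicates 1 and 2 and clone 2 replicates 1 and 2, have neighbouring library numbers in their labels and are called the shared number run here. What the numbers stand for is not given in the sources used here.

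Averaged over the 6 boundaries, insulation in ΔN(1–265) was close to that of low full-length expression, but single boundaries moved in opposite directions. The insulation score is minus log2 of the mean contact frequency in a 100-kb square across a bin, relative to all bins, so that a higher score means fewer contacts across. The mean score of the 6 boundaries was 0.48 ± 0.020 in ΔN(1–265) (SD, n = 10) and 0.51 ± 0.0086 in the low-expression line (n = 2). The clone 1 libraries ranged from 0.46 to 0.49, the clone 2 libraries from 0.48 to 0.52, and the low-expression libraries were at 0.50 and 0.51, so the groups overlapped. The difference of −0.026 did not pass a two-sided exact permutation test (p = 0.152). Full-length high libraries were at 0.61 ± 0.040 (n = 14) and no dox libraries at 0.38 ± 0.0079 (n = 2). On that scale, with no dox at 0% and full-length high at 100%, clone 1 stood at 40.7%, clone 2 at 52.7% and the low-expression line at 56.8%, given as a description with no test.

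Boundaries 3 and 5 were weaker in ΔN(1–265) than in the low-expression line, and boundaries 4 and 6 were stronger. At each of these 4 boundaries the 10 ΔN(1–265) libraries did not overlap the 2 low-expression libraries. Groups that do not overlap were found in 28.5% of the 193 bins with a score, 13% with ΔN(1–265) higher and 15.5% with it lower. The exact p of each was 0.0303, the smallest that 10 against 2 libraries can give, and the adjusted p over the 6 boundaries was 0.0455 (Benjamini-Hochberg). Because this is the smallest value possible, the call at a boundary is lost when 1 of the low-expression libraries is left out, whatever the scores, and it is lost also when any ΔN(1–265) library other than clone 2 replicate 1 is left out. With raw counts scaled to a common total in place of corrected contacts the mean over the boundaries differed by 0.056 and 0 of the 6 boundaries were called, while boundaries 3 to 6 kept their direction.

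At boundary 3, ahead of Cdx4, the clone 1 libraries scored 0.19, 0.065, 0.083, 0.098, −0.018 and 0.14, the clone 2 libraries 0.13, 0.083, 0.10 and 0.072, and the low-expression libraries 0.32 and 0.26. Every ΔN(1–265) library was below both low-expression libraries, and the lowest was clone 1 replicate 5. The means were 0.094 ± 0.054 and 0.29 ± 0.040, a difference of −0.19. No dox libraries were at 0.061 and 0.073 and full-length high libraries at 0.38 ± 0.043. ΔN(1–265) thus stood at 8.5% of the way from no dox to full-length high, 7.94% in clone 1 and 9.32% in clone 2, and the low-expression line at 70.3%.

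At boundary 5, beyond Rlim, the clone 1 libraries scored 0.43, 0.42, 0.39, 0.40, 0.35 and 0.42 and the clone 2 libraries 0.43, 0.47, 0.46 and 0.41. The low-expression libraries were nearly equal, at 0.59 for both, and lay above all 10. The difference was −0.17 (0.42 ± 0.035 against 0.59 ± 0.0049). Full-length high libraries ranged from 0.63 to 0.79 and no dox libraries were at 0.34 and 0.38, which puts ΔN(1–265) at 16.6% and the low-expression line at 65.5% of that distance.

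Boundary 4, at Xist and Tsix, was the strongest of the 6 in every one of the 12 libraries. The clone 1 libraries scored 1.44, 1.43, 1.45, 1.39, 1.53 and 1.65, the clone 2 libraries 1.44, 1.56, 1.47 and 1.43, and the low-expression libraries 1.24 and 1.26. The means were 1.48 ± 0.079 and 1.25 ± 0.017, a difference of 0.23. At this boundary the reference groups themselves overlapped, with full-length high from 1.15 to 1.68 and no dox at 1.17 and 1.27. All 10 ΔN(1–265) libraries lay within the full-length high range.

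At boundary 6, between Cox7b and Atp7a, the clone 1 libraries scored 0.65, 0.62, 0.59, 0.60, 0.59 and 0.61, the clone 2 libraries 0.72, 0.71, 0.67 and 0.67, and the low-expression libraries 0.55 and 0.56. The difference was 0.090 (0.64 ± 0.049 against 0.55 ± 0.0049). The clones did not overlap here: clone 1 was at 66.7% and clone 2 at 98.5% of the distance from no dox (0.43 ± 0.0054) to full-length high (0.70 ± 0.084). In the fit over all bins described further on, boundary 6 was not called (adjusted p = 0.211).

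Boundaries 1 and 2 did not pass with the settings used above. At boundary 1, in Nhsl2, the ΔN(1–265) libraries ranged from −0.36 to −0.18 and the low-expression libraries were at −0.20 and −0.15, with a difference of −0.059 (exact permutation test, adjusted p = 0.0727). Boundary 1 did pass the exact permutation test with a 200-kb window (−0.078, adjusted p = 0.0364), at the bin directly upstream (−0.25, adjusted p = 0.0364) and without clone 2 replicate 1 (−0.066, adjusted p = 0.0436). At boundary 2, ahead of Cited1, the ΔN(1–265) libraries ranged from 0.40 to 0.56 and the low-expression libraries were at 0.52 and 0.57, with a difference of −0.049 (adjusted p = 0.242). Full-length high libraries were at 0.66 at boundary 2.

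**Figure D1:**
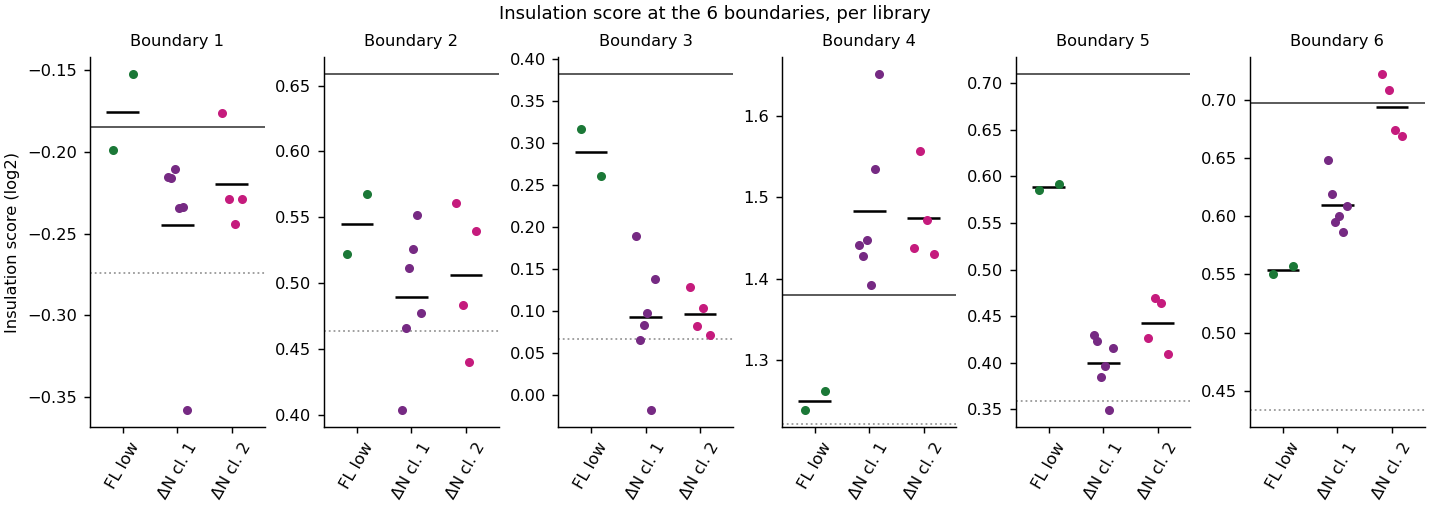
Insulation score (log2 units, y axis) of each library at the 6 boundaries, 1 panel per boundary, for low full-length expression, ΔN(1–265) clone 1 and clone 2. Points are libraries and black dashes group means, the solid grey line is the full-length high mean and the dotted line the no dox mean. At boundaries 3 and 5 all ΔN(1–265) points lie below both low-expression points, and at boundaries 4 and 6 above them.

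Taking each library relative to its own mean over the 6 boundaries gave the same 4 calls, with differences of −0.17 at boundary 3, 0.26 at boundary 4, −0.15 at boundary 5 and 0.12 at boundary 6 (exact permutation test, adjusted p = 0.0455 each). The groups differed by only −0.026 in that mean, so taking it away could change the differences by little and is no separate check of them. Within the shared number run the differences were −0.17, 0.22, −0.15 and 0.12 for boundaries 3 to 6. With 4 against 2 libraries the smallest possible exact p is 0.133, so no call could be made there.

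The clones of ΔN(1–265) differed less from each other than from the low-expression line at boundaries 3, 4 and 5. Clone 1 and clone 2 had means of 0.092 and 0.097 at boundary 3, 1.48 and 1.47 at boundary 4, and 0.40 and 0.44 at boundary 5. At boundary 6 clone 1 was lower by 0.084 (0.61 ± 0.022, n = 6, against 0.69 ± 0.026, n = 4). That difference did not pass after adjustment over the 7 scores compared (exact permutation test, adjusted p = 0.0667), and 0 of the 7 did. At an unadjusted p under 0.05, boundary 6 (p = 0.00952) and the mean over the boundaries (p = 0.0476) are among them.

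The same difference was then followed over all 193 bins that could be scored, with limma on 28 libraries. A call was made for 48 bins (24.9%), 22 with higher (11.4%) and 26 with lower (13.5%) insulation in ΔN(1–265). The median of the difference over all bins was −0.0051 and the median of its size 0.057. The calls were spread over 23 runs of neighbouring bins, and 4 of them touched a boundary or the bin next to it. The runs at boundaries 1, 3 and 5 were lower. The run at boundary 4 was higher from the boundary to 60 kb beyond it, and a separate lower run stood 80 to 40 kb before it. With raw counts in place of corrected contacts 12 bins were called, all 12 among the 48.

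Around Xist the called bins were lower from 80 to 40 kb before boundary 4 and higher from the boundary to 60 kb beyond it. Further out this did not hold: a bin before boundary 4 (chrX:100531149-100551148) was higher by 0.12, and a run 160 to 180 kb past it was lower (−0.11 to −0.096). The bin 60 kb before boundary 4 (chrX:100611149-100631148), which holds the end of Tsx and part of Tsix, scored 0.51 ± 0.051 in ΔN(1–265) (range 0.43 to 0.60) against 0.75 and 0.77, so the groups did not overlap (difference −0.25 ± 0.036 SE, limma adjusted p = 1.55e-05). With raw counts the difference was −0.14 and was not called (adjusted p = 0.677). Full-length high libraries were at 0.80 and no dox at 0.58 in that bin. The bin 20 kb past boundary 4 (chrX:100691149-100711148, in Enox) scored 0.76 ± 0.078 (range 0.67 to 0.93) against 0.47 and 0.51 (difference 0.27 ± 0.047 SE, limma adjusted p = 0.000229), and it was called with raw counts too (0.40, adjusted p = 0.0228). Here full-length high and no dox libraries were both below ΔN(1–265), at 0.59 and 0.57. The peak of insulation in ΔN(1–265) was thus higher on the Enox side and lower on the Tsx side than in the low-expression line.

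At boundary 3 the bins from 20 kb before to 20 kb after it were lower, by 0.14 to 0.19 in size, with the boundary bin itself at a limma adjusted p of 0.000488 (0.0512 without low-expression replicate 1, and 0.586 with raw counts, at −0.15). At boundary 5 the run reached from 20 kb before to 40 kb after the boundary. Its strongest bin (chrX:101191149-101211148) scored 0.61 ± 0.032 against 0.81 and 0.82, a difference of −0.21 ± 0.040 SE (limma adjusted p = 0.000488), beside 0.91 in full-length high and 0.65 in no dox. ΔN(1–265) was thus nearer to no dox than to full-length high in that bin. Before boundary 1, in the Nhsl2 bin with 2 peaks (chrX:99131149-99151148), ΔN(1–265) ranged from −0.044 to 0.17 and the low-expression libraries were at 0.33 and 0.32 (difference −0.25 ± 0.074 SE, limma adjusted p = 0.0162). Full-length high libraries were at 0.30 and no dox at −0.043 there. The Nhsl2 bin kept its difference but was not called without low-expression replicate 1 or replicate 2 (−0.25 and −0.26, adjusted p = 0.133 and 0.136), or with raw counts (−0.29, adjusted p = 0.0769).

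Away from the boundaries, a bin in Phka1, the gene of a phosphorylase kinase subunit (chrX:99751149-99771148), was higher, at 0.11 ± 0.039 against −0.094 and −0.070 (difference 0.19 ± 0.040 SE, limma adjusted p = 0.00122). Within the gene-poor middle of the large domain before boundary 6, bins at chrX:102651149-102671148 and chrX:102811149-102831148 were higher by 0.16 and 0.15 (limma adjusted p = 0.00181 and 0.0199). Of these calls, Phka1 was lost without low-expression replicate 1 (adjusted p = 0.0559), the first of the other bins without replicate 2 (adjusted p = 0.0579), and the last without replicate 1 or replicate 2 (adjusted p = 0.235 and 0.108). With raw counts these 3 differences were 0.13, 0.0063 and 0.031, and none was called (adjusted p = 0.204, 0.961 and 0.929). The last was also not called with thinned counts (0.14, adjusted p = 0.0663), a 200-kb window (0.078, adjusted p = 0.0718) or medians over primer pairs (0.12, adjusted p = 0.125). In Atp7a, 100 kb past boundary 6, insulation was −0.21 ± 0.030 against 0.025 and −0.010, a difference of −0.22 ± 0.047 SE (limma adjusted p = 0.00122). With only the primers used in every library the Atp7a difference was −0.12 and was not called (adjusted p = 0.169), nor was it called without low-expression replicate 1 (−0.20, adjusted p = 0.0559) or with raw counts (−0.066, adjusted p = 0.807). In a bin of Hdac8, which encodes a deacetylase of the cohesin subunit SMC3, the call (0.16 ± 0.052 SE, limma adjusted p = 0.0246) came from 1 library: the low-expression libraries scored −0.0063 and −0.42. Low-expression replicate 2 alone used 1 reverse primer (chrX:99634072-99638958) with 3 raw counts, all with 1 partner 40 kb away, and without that primer the difference was −0.0080 (adjusted p = 0.875). Without low-expression replicate 2 as a whole it was −0.043.

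**Figure D2:**
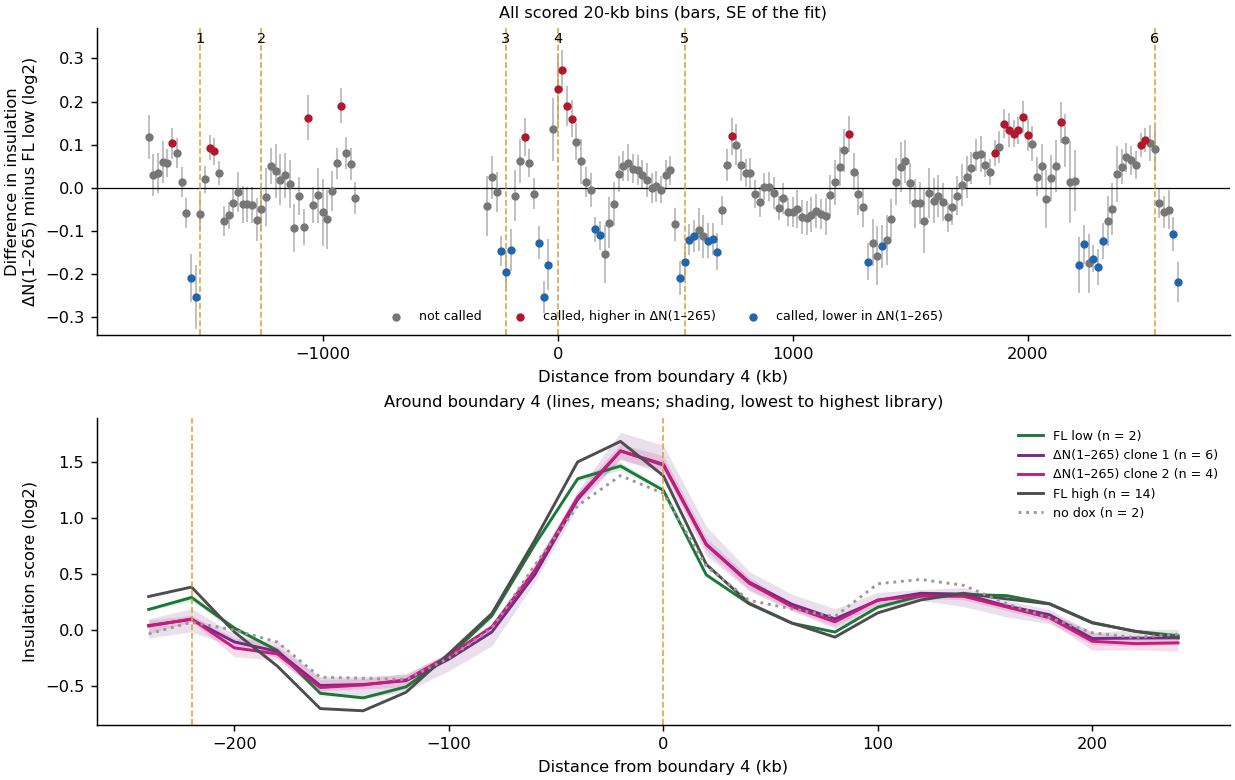
Top, difference in insulation score between ΔN(1–265) and low full-length expression (log2 units) in each 20-kb bin against its distance from boundary 4 in kb, with standard errors. Red bins were called higher, blue bins lower, and dashed lines mark the 6 boundaries. Bottom, mean insulation score of each group within 240 kb of boundary 4, shaded from the lowest to the highest library. The difference turns from −0.25 to 0.27 between 60 kb before and 20 kb past the boundary.

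The 6 boundaries divide the region into 7 domains, of 320, 240, 1020, 200, 520, 1980 and 200 kb. Domain 1 holds Ogt, domain 2 Rps4x, domain 3 Cited1, Hdac8 and Phka1, domain 4 Cdx4, Chic1, Tsx and Tsix, domain 5 Enox and Rlim, domain 6 Atrx and Magt1, and domain 7 Atp7a, Pgk1 and Taf9b. Contacts were compared as log2 of observed over expected (O/E), where the expected value is the mean at the same distance in the same library, so that domain values are free of the overall loss of contacts with distance. Of the 28 domain pairs, 14 (50%) were called by limma, 4 higher (14.3%) and 10 lower (35.7%) in ΔN(1–265). Of the 6 pairs of adjacent domains 4 were lower and 0 higher, of the 7 domains with themselves 2 were lower and 2 higher, and of the 15 pairs further apart 4 were lower and 2 higher.

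The contacts of domain 4, the Cdx4 to Tsix domain, with the domains before it were lower. Between domains 2 and 4 ΔN(1–265) had a mean log2 O/E of 0.33 ± 0.052 (range 0.19 to 0.36) against 0.66 and 0.68, so that contacts fell by 21.0% (difference −0.34 ± 0.048 SE, limma adjusted p = 3.57e-06). Full-length high libraries were at 0.65 and no dox at 0.61, so that ΔN(1–265) stood below both. Between domains 3 and 4 it had 0.12 ± 0.048 (range 0.053 to 0.18) against 0.31 and 0.26 (difference −0.17 ± 0.049 SE, limma adjusted p = 0.00933). Full-length high was at 0.25 and no dox at 0.43. Fewer contacts of domain 4 with domain 3 were thus counted although boundary 3, which parts them, had the lower insulation score. The score counts a 100-kb square in corrected contacts and the domain value all pairs of bins relative to their distance. Between domains 1 and 4 the values were −0.14 ± 0.070 against 0.015 and 0.098 (limma adjusted p = 0.0284). Full-length high libraries ranged from −0.32 to 0.079 for this pair, and every ΔN(1–265) library lay within that range. No dox libraries were at 0.070 and 0.26. The pair 3 and 4 was not called without low-expression replicate 1 (−0.15, adjusted p = 0.150), and the pair 1 and 4 without replicate 1 (−0.24, adjusted p = 0.147) or replicate 2 (−0.15, adjusted p = 0.252).

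Contacts across boundary 6 were also lower. Between domains 6 and 7, ΔN(1–265) ranged from −0.19 to −0.11 in log2 O/E and the low-expression libraries were at 0.15 and 0.13. Contacts fell by 17.7% (difference −0.28 ± 0.043 SE, limma adjusted p = 6e-06). Full-length high libraries ranged from 0.079 to 0.34, all above the ΔN(1–265) libraries, and no dox was at −0.079 and −0.068. The low-expression line was thus within the full-length high range, and ΔN(1–265) below it and next to no dox. Domain 7 with itself was higher, by 10.9% (difference 0.15 ± 0.053 SE, limma adjusted p = 0.0283), which was not called with the primers used in every library (adjusted p = 0.140). Contacts of domain 5 with domain 7 fell by 13.2% (limma adjusted p = 0.0284), although edgeR on the raw counts gave a difference of the opposite sign (0.11, adjusted p = 0.721). Neither of the last 2 was called without low-expression replicate 1 (0.13 and −0.21, adjusted p = 0.243 and 0.164) or replicate 2 (0.17 and −0.20, adjusted p = 0.0665 and 0.146).

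Within domains, the Cited1 to Nap1l2 domain (domain 3) lost contacts in the bin pairs that were measured. These were 402 over its 51 bins, beside 4520 over 99 bins in domain 6, so most bin pairs of domain 3 are not covered. The log2 O/E of domain 3 was 0.29 ± 0.031 (range 0.23 to 0.34) against 0.45 and 0.46, so that contacts fell by 10.5% (difference −0.16 ± 0.029 SE, limma adjusted p = 6.82e-05), and was 0.44 in full-length high and 0.39 in no dox. Domain 1 fell by 7.15% (0.31 ± 0.022 against 0.42 and 0.42, limma adjusted p = 0.00109). It was not called with raw counts (−0.077, adjusted p = 0.288), with no division by expected (−0.086, adjusted p = 0.101) or with edgeR (−0.058 with TMM, adjusted p = 0.755). Domain 3 with itself was not called with edgeR either (−0.11 with TMM and −0.12 with library totals, adjusted p = 0.498 and 0.328). Domain 6 rose by 3.93% (limma adjusted p = 0.00963), but its difference was −0.0014 with edgeR and library totals, and it was not called without low-expression replicate 1 (0.052, adjusted p = 0.147) or replicate 2 (0.059, adjusted p = 0.0541). Domains 2, 4 and 5 were not called, with differences of 0.0066, 0.0073 and 0.012, whose signs changed with the processing.

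Domains 1 and 3 had 10.6% more contacts with each other (limma adjusted p = 0.00963) and domains 3 and 6 4.49% more (adjusted p = 0.0177). The pair 3 and 6 differed by 0.34 with no division by expected (adjusted p = 0.0710) and by 0.50 and 0.49 with edgeR (TMM, then library totals, adjusted p = 0.106 and 0.154), and was not called by any of these. The pair 1 and 3 was not called with raw counts (0.10, adjusted p = 0.0900). Contacts between domains 2 and 3 fell by 5.21% (limma adjusted p = 0.0284). Across boundary 4, contacts between domains 4 and 5 fell by 9.19% (limma adjusted p = 0.0284). Domains 2 and 5 gave −0.15 (limma adjusted p = 0.0284), but 0.27 with edgeR on the raw counts (adjusted p = 0.495). None of these 5 pairs was called without low-expression replicate 1 (adjusted p from 0.164 to 0.364), and 3 of them were not called without replicate 2 (adjusted p from 0.0588 to 0.0670). Groups that do not overlap were found in 57.1% of the domain pairs. Domains 1 and 2 were among these (0.069 higher) but were not called (limma adjusted p = 0.0783), as were domains 3 and 7 (−0.12, adjusted p = 0.0783). Without low-expression replicate 1 the domain calls numbered 4 and without replicate 2 they numbered 7, and the pairs 2 and 4 and 6 and 7 were among both. edgeR on the raw counts with TMM called 4 domain pairs, these among them, with log2 differences of −0.56 and −0.27. Of the 14 limma calls, the pairs 2 and 4, 4 and 5 and 6 and 7 were called by edgeR with TMM and with library totals, and the others by neither.

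**Figure D3:**
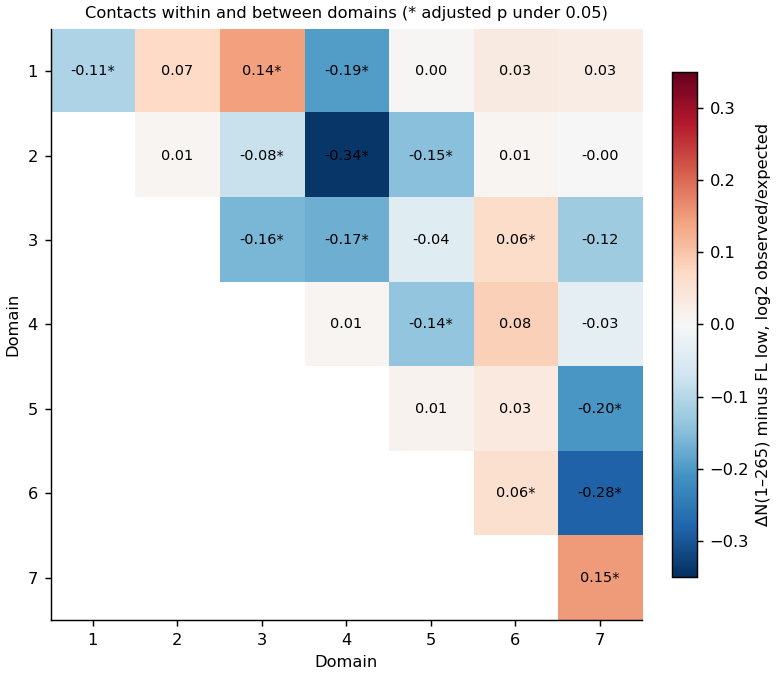
Difference between ΔN(1–265) and low full-length expression in mean log2 O/E for the 28 pairs of the 7 domains, coloured from lower (blue) to higher (red), with stars where the limma adjusted p is under 0.05. The pairs of domains 2 and 4 (−0.34) and 6 and 7 (−0.28) have the strongest decreases.

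Among single pairs of 20-kb bins, 8 of 20617 (0.0388%) were called by limma, all lower in ΔN(1–265) and 0 higher. At an unadjusted p under 0.05 there were 1017, of which 661 were lower. In 4.13% of the pairs the groups did not overlap. Without low-expression replicate 2 the number called was 0, and without replicate 1 it was 2, neither of them among the 8. With counts thinned to the shallowest library 0 were called.

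The pair that joins boundary 3 and the Tsix bin (chrX:100631149-100651148), whose motifs are convergent and printed above, is 180 kb long and was read with 10 primer pairs. Its O/E was 2.14, 2.05, 1.91, 2.17, 2.03 and 1.97 in clone 1, 2.06, 2.36, 2.11 and 1.93 in clone 2, and 3.12 and 3.10 in the low-expression libraries. All 10 ΔN(1–265) libraries were below both low-expression libraries (log2 difference −0.57 ± 0.10 SE, limma adjusted p = 0.0168). No dox libraries were at 1.92 and 1.91 and full-length high libraries between 3.00 and 4.23. The raw counts behind these values were 1182 to 7819 in ΔN(1–265) and 2027 and 5679 in the low-expression line.

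2 further calls joined the Tsix bin with domain 3. With an Hdac8 bin 960 kb away (chrX:99671149-99691148), which also holds a motif on the minus strand, O/E was 0.91 ± 0.13 (range 0.74 to 1.19) against 2.42 and 1.66 (log2 difference −1.07 ± 0.20 SE, limma adjusted p = 0.0273). The motifs of this pair point in the same direction, and the no dox libraries were at 2.06 and 2.53. With a bin 780 kb away (chrX:99851149-99871148) O/E was 1.87 ± 0.27 (range 1.42 to 2.36) against 3.86 and 3.38 (limma adjusted p = 0.0168), with no dox at 3.06 and 3.18. For both, ΔN(1–265) lay below the low-expression line, full-length high and no dox alike, unlike at boundary 3 where ΔN(1–265) was near no dox.

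Across boundary 6, the bin at chrX:103351149-103371148 in domain 7, which holds Tlr13, a Toll-like receptor gene, gave 2 calls. Its O/E with a bin 380 kb before it (chrX:102971149-102991148) was 1.46 ± 0.090 (range 1.26 to 1.58) against 2.35 and 2.18 (log2 difference −0.60 ± 0.10 SE, limma adjusted p = 0.0151), with full-length high at 2.16 and no dox at 1.62 and 1.77. With a bin in Atrx, a chromatin remodeller gene, 320 kb away (chrX:103031149-103051148), it was 0.84 ± 0.080 (range 0.66 to 0.97) against 1.37 and 1.30 (log2 difference −0.61 ± 0.11 SE, limma adjusted p = 0.0168). The last 3 calls rested on single counts. Over distances of 3520, 3660 and 2440 kb, the ΔN(1–265) libraries had 0 counts apart from 8 in clone 1 replicate 4 at the first pair, and the low-expression libraries had 5 and 7, 1 and 4, and 5 and 4 counts, from 1 or 2 primer pairs each.

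Seen from the Tsix bin, the mean contact was lower on the side of domain 3. Over the 20 bins 200 to 1000 kb before it, into domain 3, the mean O/E was 1.43 ± 0.058 in ΔN(1–265) (range 1.35 to 1.51) against 2.05 and 1.98, with 2.03 in full-length high and 1.90 in no dox. In 7 of those bins every ΔN(1–265) library was below both low-expression libraries, and in 0 above, beside 4.13% of all bin pairs in which the groups did not overlap in either direction. The Tsix bin was chosen as the bin that the most called pairs share, all of them lower. The called pairs at 780 and 960 kb are among these 7 and enter the mean. The share over all bin pairs is therefore no measure of enrichment at this bin. Over the 39 bins 200 to 1000 kb after it, across boundary 4, the mean was 0.59 ± 0.066 (range 0.51 to 0.74) against 0.67 and 0.61, so the libraries overlapped, although in 8 of those bins every ΔN(1–265) library was below both low-expression libraries and in 0 above, beside the same 4.13% of all bin pairs. The contact with the Rlim bin 520 kb after it stood out in every group, at 6.49 ± 2.26 (range 3.84 to 11.8) in ΔN(1–265) against 4.40 and 4.98, also overlapping. These viewpoint values were chosen after the single-pair calls were seen and were not tested.

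**Figure D4:**
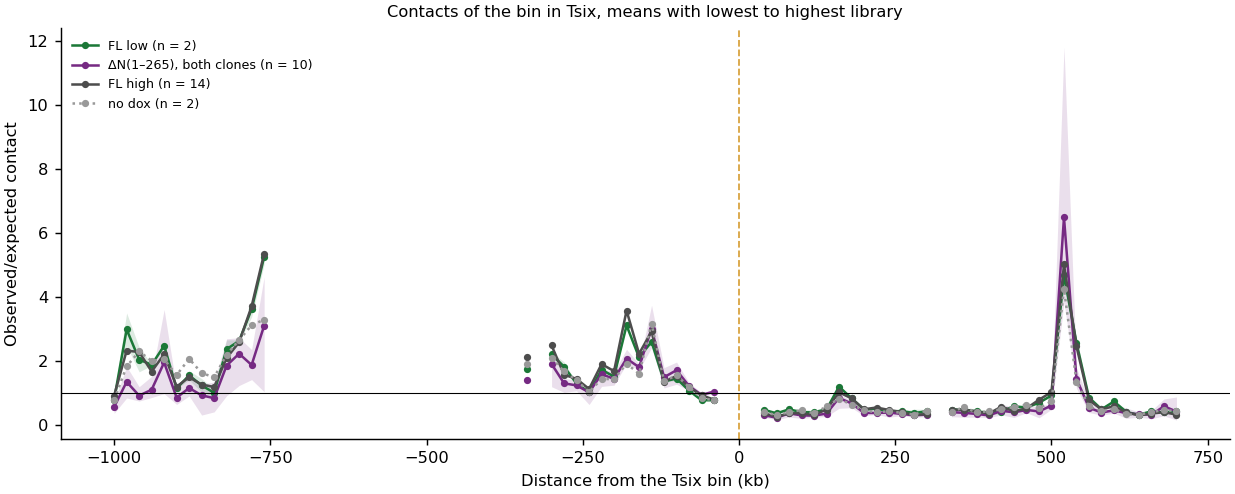
Contacts of the Tsix bin (observed over expected) against distance from it in kb, for low full-length expression (n = 2), ΔN(1–265) (n = 10), full-length high (n = 14) and no dox (n = 2), with lines for means and shading from the lowest to the highest library. To the left ΔN(1–265) runs below the low-expression line (mean 1.43 against 2.05 and 1.98 at 200 to 1000 kb). The bin was chosen because called decreases on this side share it. To the right the libraries overlap in the mean at 200 to 1000 kb, though not in every bin.

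Contacts between bins that hold FLAG-CTCF peaks were weaker in ΔN(1–265) than in the low-expression line. Over the 344 pairs of such bins 100 to 1000 kb apart, the mean log2 O/E was 0.17 ± 0.070 (range 0.052 to 0.25) against 0.28 and 0.27 in the low-expression libraries, a difference of −0.10 with no overlap (exact permutation test, p = 0.0303, adjusted p = 0.0455). Full-length high libraries were at 0.23 (range 0.10 to 0.29) and no dox libraries at 0.28 and 0.30, so the no dox mean was above that of full-length high. Clone 1 replicate 5, clone 2 replicate 1 and clone 1 replicate 6 were lowest (0.052, 0.065 and 0.12). They also had the lowest shares of nonzero primer pairs (41.2%, 47.6% and 48.0%), against 65.8% and 73.5% in the low-expression libraries. Whether the difference depends on that share, or is particular to bins with peaks, was not tested. A decrease was also found in the 139 pairs with no boundary between them, at 0.33 ± 0.061 (range 0.21 to 0.40) against 0.52 and 0.45 (difference −0.16, exact permutation test, adjusted p = 0.0455), with 0.49 in full-length high and 0.38 in no dox. The pairs with a boundary between them gave 0.066 ± 0.083 against 0.12 and 0.14, with 0.059 in full-length high and 0.22 in no dox. The libraries of ΔN(1–265) and of the low-expression line overlapped here (difference −0.062, exact permutation test, p = 0.364). That difference was −0.11 with raw counts and −0.077 with peaks counted within 1 bin, both called (exact permutation test, adjusted p = 0.0303). With any 1 of the 12 libraries left out the difference over all pairs lay between −0.11 and −0.087 and was not called. Whether the decreases of these classes differ from each other was not tested.

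Split by motif direction, a split made after the values were seen and given with no test, the 20 pairs with convergent motifs had a mean log2 O/E of 0.22 ± 0.14 (range −0.11 to 0.37) in ΔN(1–265) against 0.52 and 0.56. That is a difference of −0.32, with no overlap, beside 0.53 in full-length high and 0.36 in no dox. The pair of boundary 3 and the Tsix bin, already called lower, is among these 20 pairs. The 38 pairs with motifs in the same direction differed by −0.14 and the 18 divergent pairs by −0.15, both with overlap. The other 268 pairs, in which a bin had no motif or motifs on both strands, differed by −0.075, also with overlap. Full-length high and no dox means were 0.16 and 0.31 in the same-direction pairs and −0.040 and 0.17 in the divergent pairs. In the other 268 pairs they were 0.24 and 0.29. The no dox mean was thus above that of full-length high in each of these classes, unlike in the convergent pairs. The pairs share bins, so their number is not a number of independent contacts.

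The distribution of contacts over distance differed by little. Contacts 40 to 200 kb long made up 47.1% of the corrected contacts in both groups (exact permutation test on the log2 share, p = 0.970). Those of 200 to 500 kb made up 22.3% ± 0.20 in ΔN(1–265) (range 21.9 to 22.6) and 23.1% in both low-expression libraries, and those of 500 to 1000 kb 14.4% ± 0.27 against 15.1% and 14.9%. Contacts over 1000 kb made up 16.2% ± 0.79 (range 15.1 to 18.2) against 14.9% and 14.6%. The last 3 classes did not overlap between the groups (exact permutation test, adjusted p = 0.0404 each), and none was called without low-expression replicate 1 or replicate 2. All 3 ranges lay within those of the full-length high libraries, which spread from 12.7% to 20.2% over 1000 kb.

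**Figure D5:**
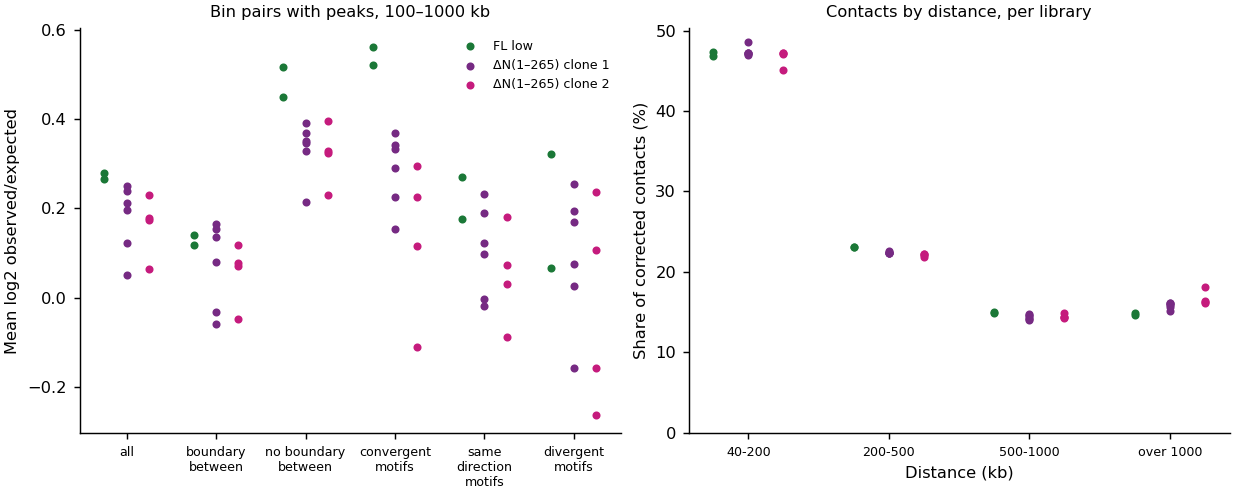
Left, mean log2 O/E of pairs of bins with FLAG-CTCF peaks in each library, for all pairs, pairs with and without a boundary between them, and pairs split by motif direction. Right, share of corrected contacts (%) by distance class. Points are libraries of low full-length expression and of ΔN(1–265). Convergent pairs show the widest gap (−0.32), in a split made after the values were seen and not tested. Contacts of 40 to 200 kb are at one level (47.1% in both).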

How the data were processed

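5C libraries had been made with HindIII and 486 forward and 504 reverse oligonucleotides. Per the submitters' processing notes the tools included Bowtie2 and SAMtools, with no version. The authors counted reads per primer pair in mm9 coordinates and deposited raw counts, and also deposited a signal in which those counts had been balanced iteratively over primers, low-coverage primers left out, usually to a total of 1000000. 3 libraries of the fit had no complete raw counts. Here, the corrected signal was averaged into 20-kb bins without rescaling, with pairs under 40 kb apart set to a constant for insulation and left out otherwise. Insulation scores, O/E and distance shares are each relative to the same library. Insulation used 100-kb squares that were at least 50% measured. For single bin pairs and peak pairs O/E was log2 transformed with a pseudocount of 0.1. Domain pairs used log2 of the mean O/E with no pseudocount. The 6 boundaries were those of untreated cells in the study.

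Boundary scores, peak pairs and distance classes were compared by two-sided exact permutation tests with Benjamini-Hochberg adjustment, and bins, domain pairs and bin pairs by limma 3.58.1 (R 4.3.3) over 28 libraries in 5 groups, with adjustment over all features. edgeR 4.0.16 (quasi-likelihood) on raw counts was an alternative for domain pairs. The programs were tested on simulated data. Named bins were the 5 strongest calls in each direction at least 100 kb apart, and named bin pairs the 5 strongest. The other 3 called pairs were named after their values were seen. The members and lists were chosen with earlier results of these data known, and the motif (12 bases, from words with at most 3 mismatches to the most frequent one in 768 peaks), its orientation classes, the Tsix viewpoint and the primer alternative after these values were seen. Peaks were the deposited FLAG peaks of full-length cells (49682 in the genome), whose values are coordinates only. Genes and sequences came from NCBIM37 with its GENCODE annotation. Replicate numbers did not pair the libraries: deviations correlated at −0.16 to 0.10 for equal numbers and 0.0091 to 0.30 for unequal ones. Precision for single bin pairs is limited by counts.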

Additional observations from a re-analysis of the deposited data

Results flagged for a closer look

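5 of 62 groups of 4 to 10 libraries held a library that stood apart by Dixon's criterion, where chance gives about 1 in 20. At boundary 1, clone 1 replicate 6 had an insulation score of −0.36, with −0.23 the nearest of the other clone 1 libraries. In the peak pairs with no boundary between them, clone 1 replicate 5 had a mean log2 O/E of 0.21, with 0.33 the nearest. This is the same library that scored lowest at boundary 3, where it did not stand apart. For contacts of 40 to 200 kb, on the log2 of the percent of contacts, clone 1 replicate 6 was at 5.60 with 5.56 the nearest in clone 1, and clone 2 replicate 1 was at 5.49 with 5.56 the nearest in clone 2. Clone 2 replicate 1 was also apart over 1000 kb, at 4.18 with 4.03 the nearest, so that it holds fewer short and more long contacts than the other libraries of clone 2. Leaving out clone 2 replicate 1 is the one omission of a library after which boundary calls remained.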

How the results depend on the processing

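The directions at boundaries 3 to 6 held under every alternative run, and the calls did not. No call of a boundary was possible within the shared number run (smallest exact p 0.133) or with the replicate block (0.222), and with raw counts the numbers higher and lower were also 0 and 0, for the scores and for the scores relative to the library mean. Leaving out 1 library gave 0 to 2 boundaries higher and 0 to 3 lower, and 0 in either direction for the relative scores, where the smallest exact p is 0.0364 (9 against 2) or 0.182 (10 against 1). The replicate numbers do not pair the libraries. As a block they gave 14 bins higher and left the domain calls and other bins within 1.5 times. The mean over the boundaries differed by 0.056 with raw counts, and by −0.073 at the bins directly upstream, where the exact permutation p was 0.0303. With raw counts boundary 1 differed by 0.049 and boundary 2 by 0.033, and at the bin upstream the relative score of boundary 2 by 0.00029. Between the clones, boundary 2 differed by 0.0069 with raw counts and 0.025 with medians over primer pairs, and boundary 4 by −0.014 with a 200-kb window and −0.041 with medians. With 1 library left out the clones differed by −0.039 to 0.0013 (boundary 2), by −0.024 to 0.018 (boundary 3), and by −0.026 to 0.036 (boundary 4).

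Peak pairs differed by −0.097 with counts thinned to the shallowest library, −0.089 within the shared number run and −0.053 at 200 to 600 kb, none called, and by −0.11 to −0.087 with 1 library left out. The distance classes gave 0 higher and 0 lower with raw counts, thinned counts or the shared number run, and 0 to 1 higher and 0 to 2 lower with 1 library left out, 0 without either low-expression library. Contacts of 40 to 200 kb moved from −0.0097 to 0.0052 on the log2 scale.

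Bins gave 6 higher and 6 lower with raw counts and 11 and 16 with medians. With 1 library left out they gave 3 to 23 higher and 5 to 26 lower (3 and 5 without low-expression replicate 1, 7 and 7 without replicate 2). The Hdac8 bin differed by −0.0080 with common primers (an alternative chosen after seeing the data), −0.021 with medians and −0.043 to 0.37 with 1 library left out. Domain pairs gave 0 higher and 4 lower with no division by expected, 1 and 3 with edgeR and TMM, and 0 and 3 with edgeR and library totals. With 1 library left out they gave 0 to 4 higher and 4 to 10 lower (0 and 4 without low-expression replicate 1, 1 and 6 without replicate 2). Bin pairs gave 4 higher and 5 lower with the number run as a term, 1 higher above the median contact, 0 lower when thinned, 26 lower within the shared number run and 3 lower with the 12 libraries alone. With 1 library left out they gave 0 to 2 higher and 0 to 12 lower (2 lower without low-expression replicate 1, 0 without replicate 2).

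Values of domain pairs that changed sign were as follows. Domain 2 gave −0.012 with raw counts, −0.013 in the shared number run and with the block, −0.011 with the run term, and −0.042 and −0.052 with edgeR (TMM, then totals). Domain 4 gave −0.097, −0.026, −0.026, −0.0055, −0.059 and −0.068 in the same order, and −0.0072 to 0.022 with 1 library left out. Domain 5 gave −0.0099 with no division by expected and −0.038 and −0.049 with edgeR. The pair 2 and 5 gave 0.27 and 0.26 with edgeR. The pair 5 and 7 gave 0.14 with no division by expected and 0.11 and 0.10 with edgeR. Domain 6 gave −0.0014 with edgeR and totals. Apart from the smallest possible p-values, the causes of these changes were not tested. The shallowest library, low-expression replicate 1, held 3631870 counts, and with all libraries thinned to that depth 0 single bin pairs were called.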
